A study of Mus musculus with 9 samples.

Results

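The 52 genes described here encode histone chaperones and nucleosome remodellers, and they were chosen by name as subunits of the best known machines of that kind. Each symbol matched 1 row of the deposited count table, which holds 39179 gene rows, and all 52 rows passed the filter on low counts that left 18576 genes for testing. RNA was sequenced from LSK cells, the Lin- Sca1+ cKit+ fraction of bone marrow that holds haematopoietic stem cells and multipotent progenitors. All mice were C57BL/6, 6 months old, and had been given 5 intraperitoneal injections of poly(I:C), which induces the interferon-responsive Mx promoter that the group names refer to. Cre under that promoter is known to act in blood cells and also in other tissues such as liver. Wild-type mice were wt_Mx+ and Dnmt3a+/+ (n = 3, libraries wt_Mx_pos_820, wt_Mx_pos_823 and wt_Mx_pos_825). Mutant mice were cKI_Mx+ and Dnmt3a+/m, with 1 mutant allele at the endogenous locus (n = 4, libraries cKI_Mx_pos_824, cKI_Mx_pos_827, cKI_Mx_pos_829 and cKI_Mx_pos_830). Cre-negative mice were cKI_Cre- and are given as Dnmt3a+/- (n = 2, libraries cKI_Cre_neg_780 and cKI_Cre_neg_819), so their contrast with wild type joins the allele to the absence of Cre. Nothing in the labels says more about how the animals were related, and p-values measure the spread between these libraries.

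Nucleosomes block access to DNA, and the cell moves, opens or rebuilds them with these proteins. Chaperones carry histones and use no ATP: FACT loosens nucleosomes in front of polymerases, CAF-1 lays down new H3-H4 behind replication forks, and HIRA or DAXX with ATRX deposit the H3.3 variant without replication. Remodellers of the SWI/SNF, ISWI, CHD and INO80 families burn ATP to slide, evict, space or exchange nucleosomes. In mouse bone marrow, loss of the remodeller Chd4 or Smarca5 is known to disturb stem and progenitor cells. Dnmt3a, the gene altered in these mice, is a de novo DNA methyltransferase that acts on the same chromatin, and its mutation is common in human clonal haematopoiesis and acute myeloid leukaemia.

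Gene counts ran from 47792306 to 58405879 per library. The LSK marker list was detected in every library, with a summed level of 2074 to 2997 CPM (counts scaled to a common library size), and Kit itself lay between 369 and 539 CPM. Summed erythroid markers were 893 to 1181 CPM in 8 libraries and 4333 CPM in library cKI_Cre_neg_819, where the LSK sum was also the lowest. No marker of the B cell, neutrophil, erythroid, macrophage or T and NK cell lists was at 0 in all libraries, although 7 of 12 T and NK cell markers stayed under 1 CPM throughout. Y-linked transcripts were present in 5 libraries and absent in 4, with both kinds in every group. Dnmt3a RNA was 148 to 173 CPM in wild type, 153 to 171 CPM in mutant and 118 and 93.5 CPM in Cre-negative libraries. Because these are bulk samples, fewer cells of a type and less RNA per cell cannot be told apart.

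To compare genes with one another, CPM was divided by the length of the annotated exons of each gene in kilobases. By this measure most members were well expressed: their median was 23.0 CPM per kb, against 3.81 CPM per kb over the 18297 tested genes with a length, and 49 of 52 members lay above that median. Ssrp1, the HMG-box subunit of FACT, was the most abundant at a mean of 151 CPM per kb (SD 22.2, n = 9). Its partner Supt16, the larger FACT subunit, ran from 44.4 to 78.1 CPM per kb, and Supt6, an H3-H4 chaperone that travels with elongating RNA polymerase II, from 21.3 to 25.2 CPM per kb. Rbbp7, a histone-binding WD40 protein shared by NuRD and Polycomb complexes, followed Ssrp1 at 126 CPM per kb, from 101 to 167. Chd4, the main NuRD ATPase, came next at 108 ± 3.54 CPM per kb, then the H2A-H2B chaperone Nap1l4 at 76.9 ± 7.02 and the NuRD subunit Mta2 at 76.9 ± 6.40 CPM per kb. These 5 genes kept their ranks when the longest annotated transcript was used as the length.

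**Figure D1:**
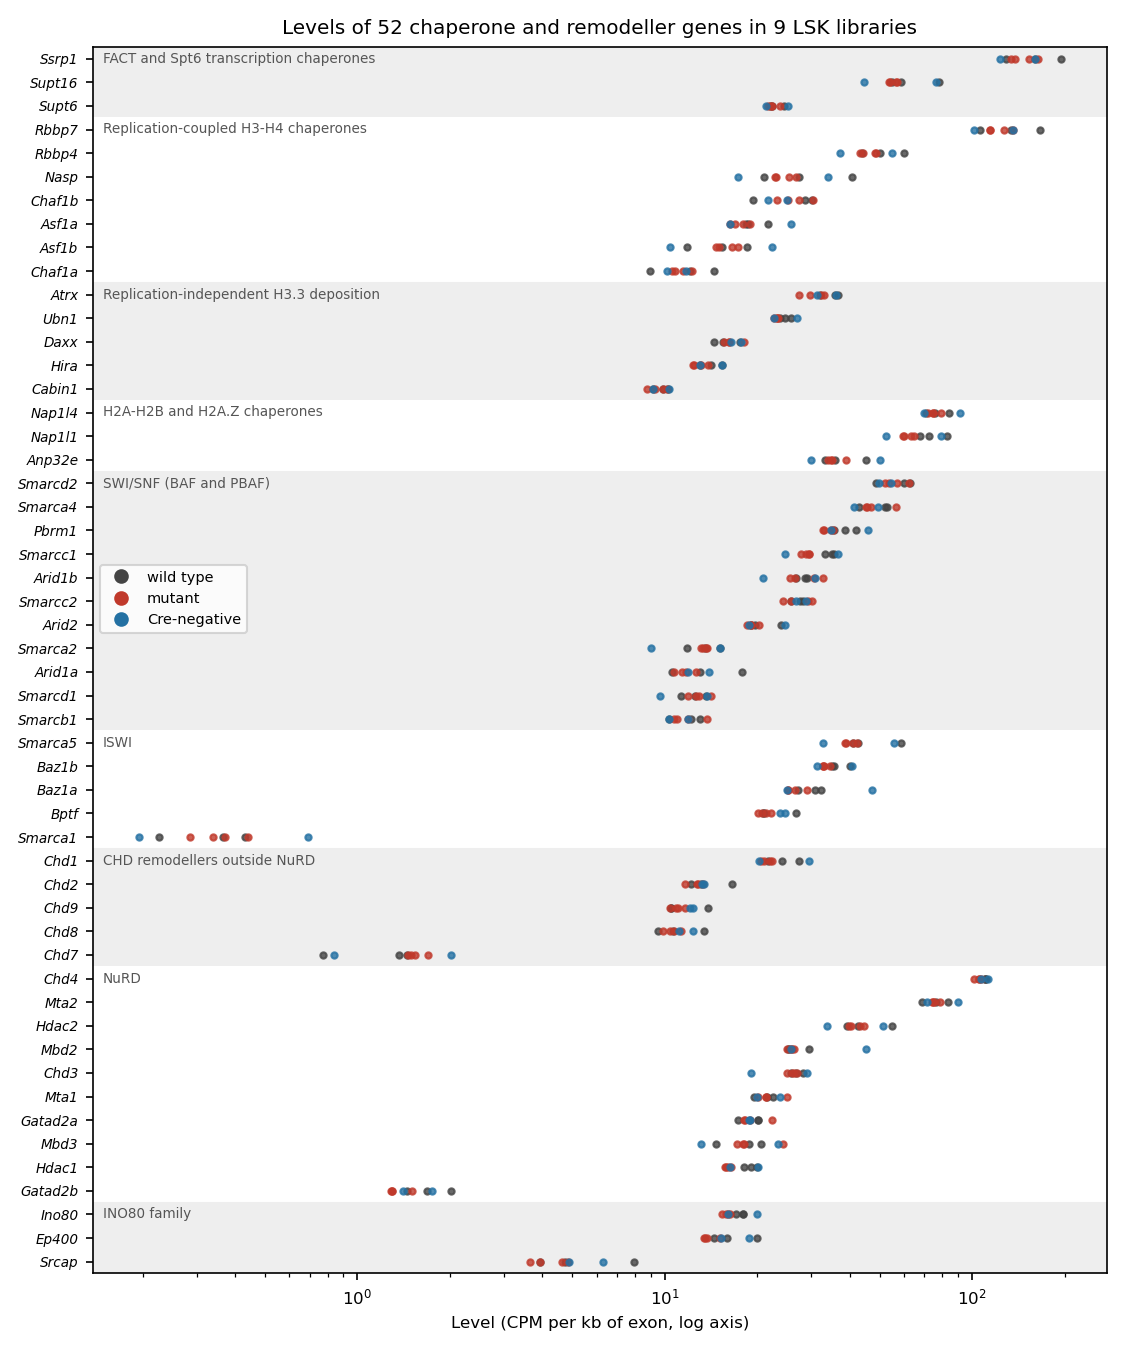
Level of each of the 52 genes in CPM per kb of exon, on a log axis; each point is 1 of the 9 libraries, coloured by group, and genes are set in blocks by role. Most genes sit between Cabin1 and Nap1l4, Ssrp1 reaches 195 in 1 wild-type library, and Smarca1, Chd7, Gatad2b and Srcap lie to the left of the rest.

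At the lower end stood Srcap with 4.98 (range 3.65 to 7.92), Gatad2b with 1.52 (1.29 to 2.01), Chd7 with 1.40 (0.773 to 2.01) and Smarca1 with 0.371 (0.195 to 0.688) CPM per kb over 9 libraries. Srcap is the ATPase of the complex that loads H2A.Z, Gatad2b is a NuRD scaffold, Chd7 is a CHD remodeller mutated in human CHARGE syndrome, and Smarca1 (SNF2L) is an ISWI ATPase. Neighbours in the order of levels seldom separated: 47 of the 51 adjacent pairs had overlapping ranges over the 9 libraries. The 4 gaps without overlap lay between Chd4 and Nap1l4, Cabin1 and Srcap, Srcap and Gatad2b, and Chd7 and Smarca1.

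The sharpest contrast within a family was between the ISWI ATPases. Smarca5 (SNF2H) stood at 43.5 ± 8.31 CPM per kb, with 255 to 457 CPM per library. Smarca1 gave 2.23, 1.39 and 2.63 CPM in wild type, 2.70, 1.75, 2.07 and 2.26 CPM in mutant, and 4.21 and 1.19 CPM in Cre-negative libraries. Its highest and lowest values were thus both in the Cre-negative group, and all 3 groups overlapped. The 250 bases before the RefSeq start of each gene (GRCm38.p6, minus strand, printed 5′ to 3′ along the gene) are shown because these windows differ in CpG count. Capitals mark CpG dinucleotides, of which there are 29 at Smarca5 (chr8:80739460-80739709) and 6 at Smarca1 (chrX:47892614-47892863). In GENCODE, which gave the exon lengths, Smarca1 starts further upstream, at base 47892974, so its window lies inside the annotated gene. The Smarca5 window instead extends upstream of the GENCODE start, at base 80739497. Under that annotation the windows are not at like positions, so their CpG counts are not a matched comparison of promoters.

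Smarca5: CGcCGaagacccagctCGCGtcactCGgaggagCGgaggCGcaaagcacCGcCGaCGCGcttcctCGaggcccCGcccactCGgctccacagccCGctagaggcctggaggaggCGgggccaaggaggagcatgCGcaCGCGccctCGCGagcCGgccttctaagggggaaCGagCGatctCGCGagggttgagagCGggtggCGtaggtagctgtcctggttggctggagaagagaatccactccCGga

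Smarca1: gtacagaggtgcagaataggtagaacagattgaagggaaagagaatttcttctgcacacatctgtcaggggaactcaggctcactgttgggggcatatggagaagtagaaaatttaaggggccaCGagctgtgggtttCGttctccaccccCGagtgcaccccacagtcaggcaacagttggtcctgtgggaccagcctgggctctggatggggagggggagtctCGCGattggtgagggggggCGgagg

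CpG dinucleotides are the substrate of Dnmt3a, but methylation was not measured here, and these letters say nothing of it. RefSeq windows were found for 43 of the 52 genes, 51 windows in all, with a median of 24 CpG dinucleotides per window; the median was 14 over windows of tested genes and 6 over all 32817 windows. Letters of the kind bound by E2F factors, which drive S phase genes (TTTCCCGC, TTTGGCGC, TTTCGCGC or TTTGCCGC on either strand), occurred in 3 member windows, those of Ssrp1, Arid1a and Smarcd1. That is 5.88% of the 51, against 2.98% of windows of tested genes and 1.86% of all windows. None of the 7 windows of replication-coupled chaperones held them.

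Several members are alternative subunits for the same place in a complex. Smarca4 (BRG1) and Smarca2 (BRM) are the mutually exclusive ATPases of SWI/SNF, and the ratio of their per-kb levels was 3.71 ± 0.583 (SD, n = 9), from 2.84 in library wt_Mx_pos_820 to 4.59 in library cKI_Cre_neg_819. The size of that ratio depends on the length used, since it was 1.57 with the longest transcripts. Hdac2 exceeded Hdac1, its fellow NuRD deacetylase, by a ratio of 2.47 ± 0.269, or 2.01 with the longest transcripts. Rbbp7 exceeded Rbbp4 by 2.64 ± 0.130, or 1.82. Chd4 exceeded Chd3, the other NuRD ATPase, by 4.22 ± 0.665, or 4.35. Asf1a and Asf1b, which hand H3-H4 to CAF-1 and HIRA, were close, at 1.23 ± 0.197, or 1.56, and 48.1% of the exon length of Asf1a overlaps Mcm9 on the opposite strand. The direction held in all 9 libraries for each of these 5 ratios under both lengths.

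The median coefficient of variation over the 9 libraries was 12.2% for the 52 genes and 19.1% for all 18576 tested genes, most of which had lower levels. Chd4 varied least, by 3.28%. Smarca1 varied most, by 39.2%, followed by Chd7 with 27.6%, Srcap with 27.0%, Nasp with 26.5%, Baz1a with 23.5%, Mbd2 with 22.9% and Asf1b with 22.4%. Nasp, which keeps a reserve of soluble H3-H4, ranged from 130 to 305 CPM. Nasp and Asf1b belong to the replication-coupled chaperones, whose libraries were ordered much as those of S phase genes. The median log2 CPM, centred on the mean of each gene, of the 7 replication-coupled chaperones was -0.29, 0.34 and 0.09 in wild type, 0.10, 0.02, -0.13 and -0.13 in mutant, and -0.30 and 0.21 in Cre-negative libraries. For 30 S phase genes the same values were -0.31, 0.43 and 0.12, then 0.10, -0.02, -0.12 and -0.13, then -0.31 and 0.23. Library wt_Mx_pos_823 was the highest and libraries wt_Mx_pos_820 and cKI_Cre_neg_780 were the lowest in both lists, so the largest spread lay within groups. The cell-cycle share of these libraries was not measured otherwise, and its part in the member values was not tested.

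**Figure D2:**
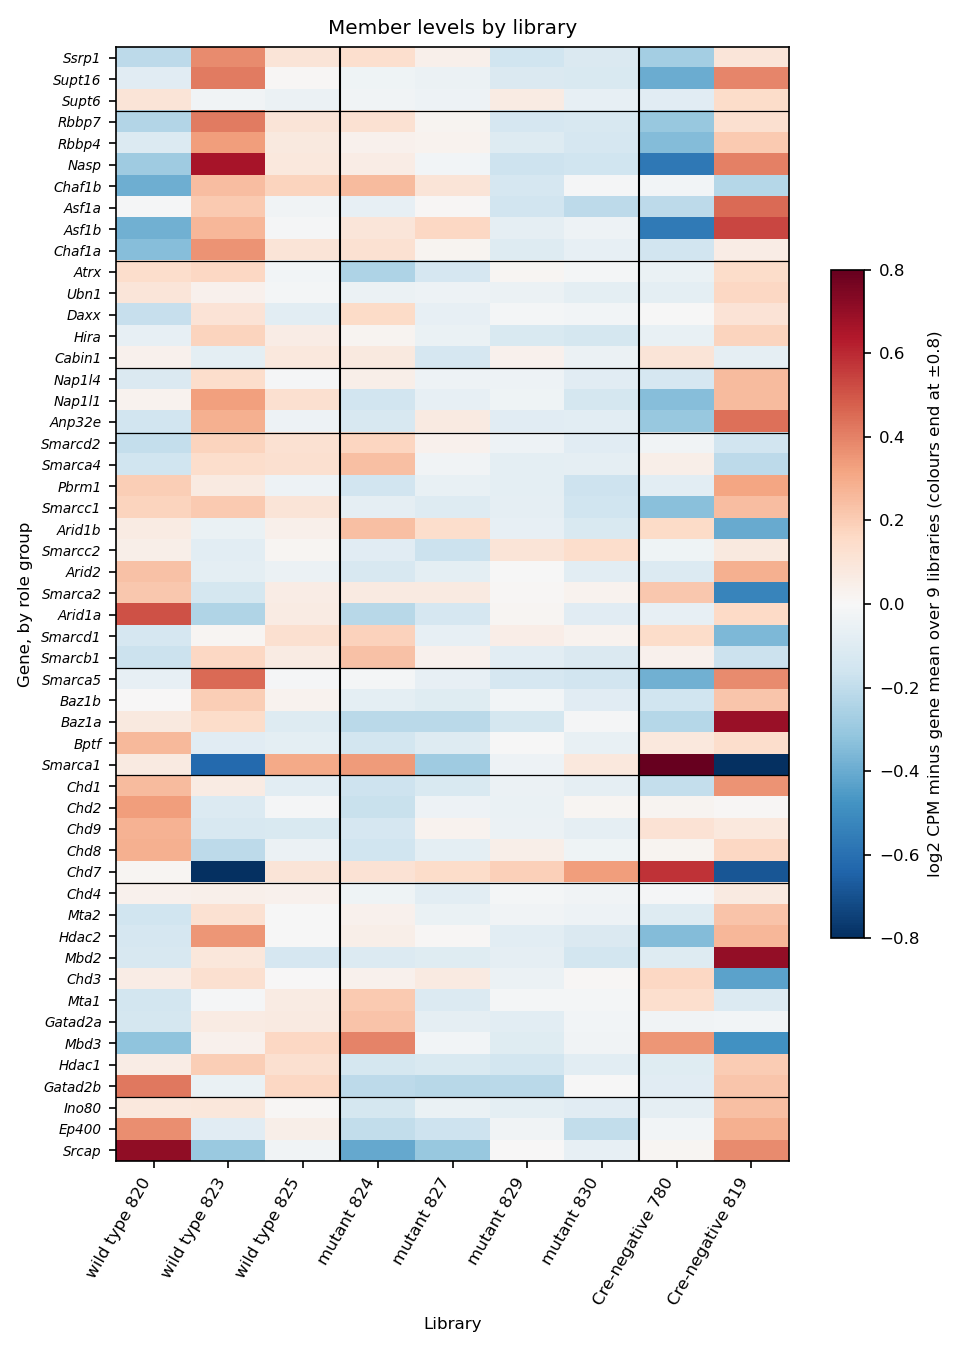
Centred log2 CPM of the 52 genes (rows, in role blocks) in the 9 libraries (columns, by group), with red above and blue below the gene's own mean. Libraries wt_Mx_pos_820 and wt_Mx_pos_823 of the wild type and libraries cKI_Cre_neg_780 and cKI_Cre_neg_819 of the Cre-negative group hold most of the deep colours, and the 4 mutant libraries are paler.

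Extremes fell mostly in those libraries and in mutant library cKI_Mx_pos_824. Library cKI_Cre_neg_819 held the highest value of 17 members (32.7%; 21.3% of all tested genes) and library cKI_Cre_neg_780 the lowest value of 17 (32.7%; 19.3%). Library wt_Mx_pos_823 held the highest value of 12 members (23.1%; 14.2%). Library cKI_Cre_neg_780 was lowest for 5 of the 7 replication-coupled chaperones, for all 3 FACT and Spt6 genes and for all 3 H2A-H2B and H2A.Z chaperones. Library cKI_Cre_neg_819 was lowest for 5 of the 11 SWI/SNF genes, among them Smarca2 and Arid1b, and highest for 4 of the 10 genes in the NuRD block. Mutant library cKI_Mx_pos_824 held the highest value of 9 members (17.3%, against 10.4% of all tested genes). The same library held the lowest value of 7 members (13.5%, against 11.9%) and was highest for 4 of the 11 SWI/SNF genes.

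The first comparison asked whether the chaperone and remodeller genes differ when 1 Dnmt3a allele is mutant. No member passed the threshold. By the quasi-likelihood test of edgeR with Benjamini-Hochberg adjustment over 18576 genes, 0 of 52 members had an adjusted p under 0.05, and their adjusted p-values were 0.998 to 0.999; the share called among all tested genes was 0%. At an unadjusted p under 0.05, 2 of 52 members were lower in mutant (3.85%; 1.31% of all genes) and 0 were higher (1.86% of all genes, and 3.17% in both directions). DESeq2 called 36 genes and limma-voom with sample quality weights called 13 in this comparison, and neither called a member. The member log2 differences ran from -0.38 to 0.37 with a median of -0.10, and 41 of 52 were negative (78.8%); over all genes the median was -0.02 and 54.3% were negative. Without library wt_Mx_pos_823 the member median was -0.045 and 31 of 52 were negative (47.9% of all genes); leaving out each other library gave 35 to 44. Members share libraries and are not independent of one another, so these counts are descriptions.

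**Figure D3:**
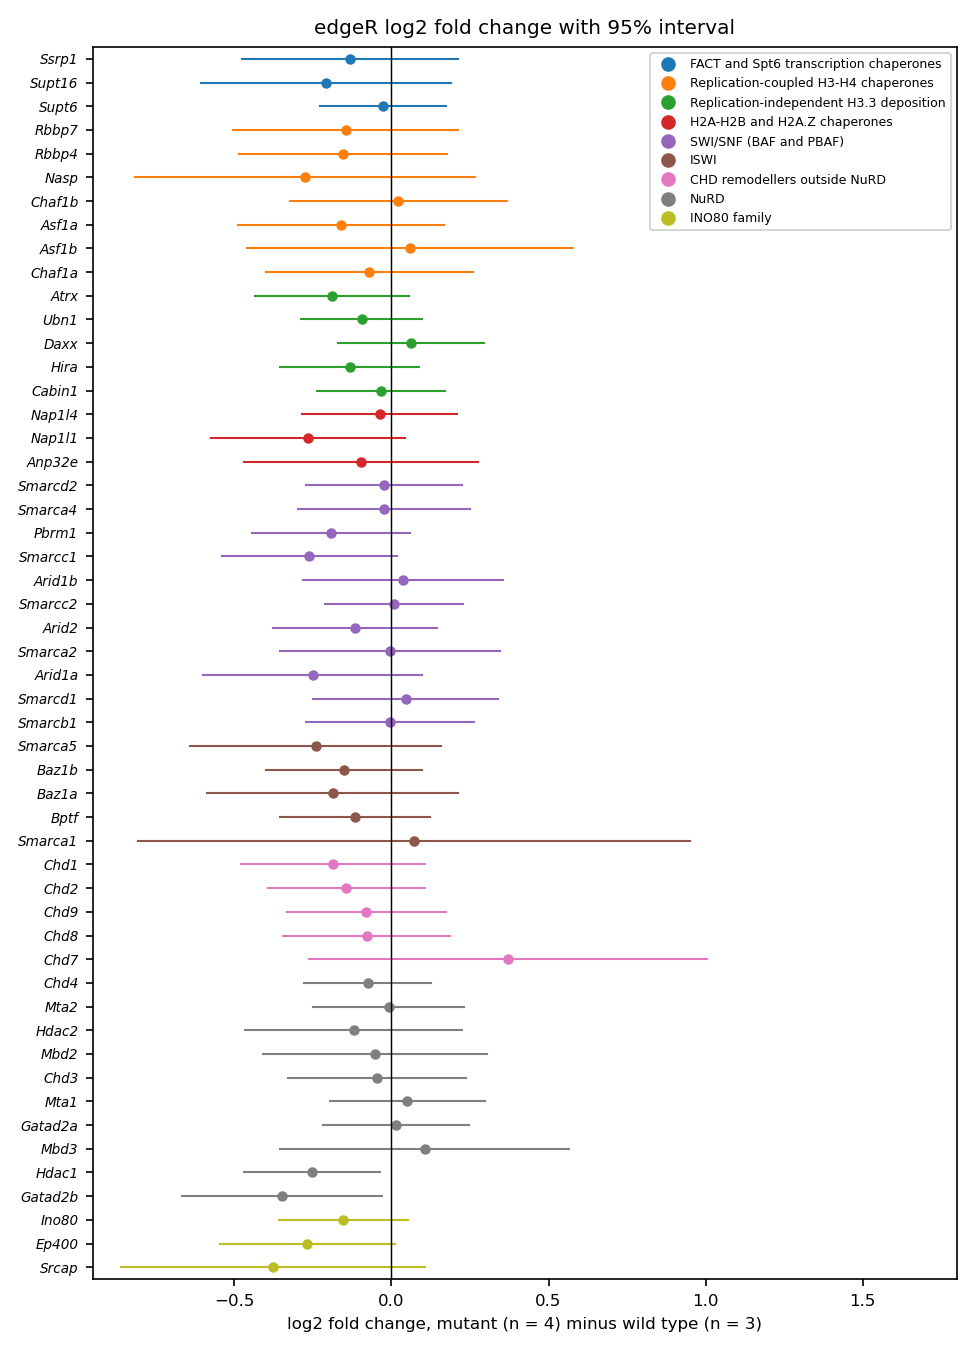
Log2 fold change of mutant (n = 4) minus wild type (n = 3) for each gene, with its 95% interval from the edgeR fit, in role blocks. Points lie left of 0 for 41 of the 52 genes, and the intervals of Hdac1 and Gatad2b alone exclude 0 before adjustment.

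The FACT genes overlapped between groups. Ssrp1 gave 484, 727 and 600 CPM in wild type and 614, 574, 500 and 514 CPM in mutant, and all 4 mutant values lay inside the wild-type range. Its log2 difference was -0.13 (SE 0.15). Supt16 gave 277, 393 and 296 CPM in wild type and 288, 285, 272 and 271 CPM in mutant, with a log2 difference of -0.21 (SE 0.18). Only library wt_Mx_pos_823 stood well above the mutant values of Supt16. Supt6 differed by -0.03. The 7 replication-coupled chaperones had a median of -0.15, from -0.28 for Nasp to 0.06 for Asf1b, and 5 of 7 were negative. Beside this, all 30 S phase genes were negative in the same comparison (54.3% of all genes), with a median of -0.16 and 0 called. For 0 of the 30 did all mutant values lie below all wild-type values. The centred S phase medians of the mutant libraries, -0.13 to 0.10, lay inside the wild-type range of -0.31 to 0.43.

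Among chaperones of the H3.3 route, 4 of 5 were negative with a median of -0.09: Atrx, Hira, Ubn1 and Cabin1 against Daxx at 0.06. Nap1l1, which shuttles H2A-H2B, gave 338, 415 and 363 CPM in wild type and 298, 316, 323 and 301 CPM in mutant. Every mutant value lay below every wild-type value. The log2 difference of Nap1l1 was -0.27 (SE 0.14, unadjusted p 0.0843 and adjusted p 0.998 by edgeR), and -0.17 without library wt_Mx_pos_823.

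The SWI/SNF genes had a median of -0.02, with 8 of 11 negative. Smarcc1 (BAF155), a core scaffold, stood at 274, 279 and 260 CPM in wild type and 231, 226, 231 and 217 CPM in mutant. These groups did not overlap, with a log2 difference of -0.26 (SE 0.13, unadjusted p 0.0624 and adjusted p 0.998 by edgeR). Pbrm1, the PBAF bromodomain subunit, gave 372, 342 and 315 CPM against 291, 311, 307 and 290 CPM, again without overlap. The catalytic subunits did not separate: the log2 difference of Smarca4 was -0.02 (SE 0.12) and that of Smarca2 was -0.00 (SE 0.16).

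In the ISWI block, Smarca5 differed by -0.24 (SE 0.18) and its partner Baz1a (ACF1) by -0.19 (SE 0.18), and the block median was -0.15. Chd7 was the only member whose mutant values all lay above wild type, at 20.1, 20.6, 21.2 and 23.3 CPM against 18.8, 10.7 and 19.9 CPM. Library wt_Mx_pos_823 was far below the others there, and the highest wild-type value almost met the lowest mutant value. The log2 difference of Chd7 was 0.37 (SE 0.28, unadjusted p 0.221 by edgeR).

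The lowest unadjusted p-values belonged to NuRD, the complex that joins a CHD remodeller to histone deacetylases. Hdac1 (chr4:129516104-129542713, minus strand) and Gatad2b (chr3:90293178-90363407, plus strand) are protein-coding genes, with coordinates from GENCODE on GRCm38. Hdac1 stood at 62.6, 68.8 and 65.5 CPM in wild type and 54.3, 55.1, 54.2 and 56.7 CPM in mutant. All mutant values lay below all wild-type values, and the mutant libraries lay close together. The log2 difference of Hdac1 was -0.25 (SE 0.10, unadjusted p 0.0260 and adjusted p 0.998 by edgeR). Gatad2b gave 23.0, 16.5 and 19.2 CPM in wild type and 14.9, 14.7, 14.8 and 17.2 CPM in mutant. Library cKI_Mx_pos_830 passed the lowest wild-type value, with a log2 difference of -0.35 (SE 0.14, unadjusted p 0.0345 and adjusted p 0.998 by edgeR), and -0.19 without library wt_Mx_pos_820. The other 8 genes of the NuRD block ranged from -0.12 for Hdac2 to 0.11 for Mbd3, and the median of the 10 in the block was -0.05. Rbbp7, which NuRD shares, was counted with the replication-coupled chaperones at -0.15, as was Rbbp4 at -0.15.

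All 3 genes of the INO80 family were negative, with a median of -0.27. Ep400, the ATPase of the TIP60-associated complex, gave 279, 202 and 223 CPM in wild type and 189, 192, 212 and 188 CPM in mutant. Only library cKI_Mx_pos_829 reached into the wild-type range. The log2 difference of Ep400 was -0.27 (SE 0.13, unadjusted p 0.0587 and adjusted p 0.998 by edgeR), and -0.10 without library wt_Mx_pos_820. Srcap gave 125, 62.1 and 74.9 CPM against 57.5, 62.0, 76.5 and 72.9 CPM, a log2 difference of -0.38 (SE 0.22). Without the same library, where both genes stood highest, the difference of Srcap was -0.0029; the block median is the value of Ep400. By limma-voom with quality weights the difference of Srcap was -0.15; 61.7% of its exon length is shared with the annotated gene Gm42715 on the same strand.

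In all, mutant values lay wholly below wild type for 8 of 52 members (15.4%; 4.15% of all genes) and wholly above for 1 (1.92%; 4.17%). The 8 were Ubn1, Nap1l1, Smarcc1, Pbrm1, Baz1b, Chd4, Hdac1 and Ino80, drawn from 6 of the 9 role blocks. Among the 8, the log2 differences ran from -0.27 for Nap1l1 to -0.08 for Chd4. Chd4, the smallest of them, stood at 883, 887 and 882 CPM in wild type and 843, 814, 855 and 846 CPM in mutant. Beside these values, the median log2 difference was 0.84 for B cell markers (12 of 12 positive, 82.8 to 145 CPM summed in wild type and 140 to 194 CPM in mutant) and 1.42 for mature neutrophil markers (11 of 12 positive, 62.5 to 178 CPM and 143 to 446 CPM), with 0 called in either list. The mutant libraries were uneven. In order of library number, their centred B cell medians were 0.05, -0.31, 0.90 and 0.64, against -0.51, -0.65 and 0.06 in wild type. Jchain alone gave 101 and 135 CPM of the sums in libraries cKI_Mx_pos_824 and cKI_Mx_pos_827. The neutrophil medians were -0.74, 0.33, 0.34 and 1.85 in mutant and -1.34, -0.86 and 0.18 in wild type. The part of these markers in the member values was not tested.

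**Figure D4:**
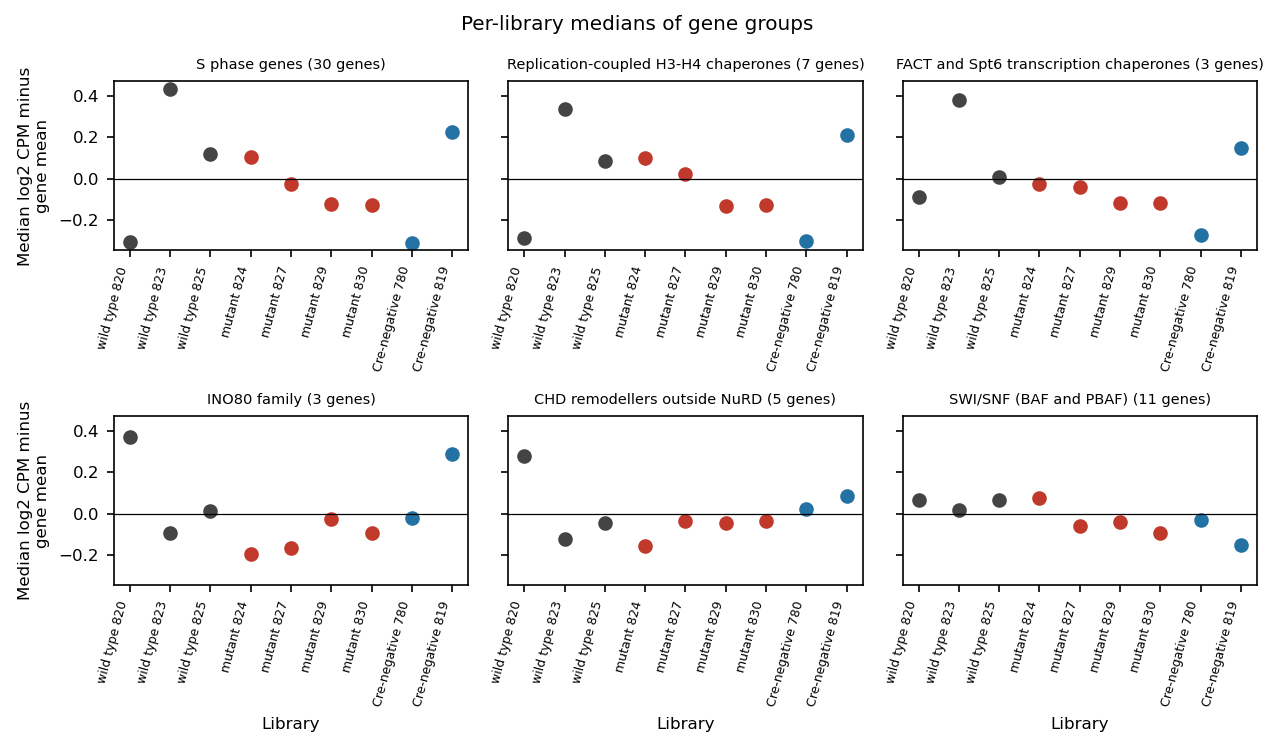
Median centred log2 CPM in each library for the S phase list and 5 role blocks, 1 panel each, with libraries coloured by group. The replication-coupled block runs from -0.30 to 0.34 and follows the S phase list, whereas the INO80 and CHD blocks are highest in library wt_Mx_pos_820.

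The second comparison set Cre-negative against wild type, and shares the wild-type libraries with the first. By the edgeR test 0 of 52 members were called (0% of all genes), and 0 had an unadjusted p under 0.05 (5.23% of all genes, 1.59% lower and 3.64% higher). DESeq2 called 59 genes and limma-voom called 0, none of them members. The median member difference was -0.003, with 26 members positive and 26 negative; it was 0.054 without library cKI_Cre_neg_780 and -0.14 without library cKI_Cre_neg_819. For no member did the Cre-negative values lie wholly below (5.12% of all genes) or wholly above (6.25%) wild type. The 2 Cre-negative libraries lay far apart for several members.

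Mbd2, which binds methylated CpG and brings NuRD to it, was one of them. It stood at 81.3, 94.9 and 81.0 CPM in wild type, and at 83.0 CPM in library cKI_Cre_neg_780 and 145 CPM in library cKI_Cre_neg_819. Library cKI_Cre_neg_780 lay inside the wild-type range and library cKI_Cre_neg_819 far above it. The log2 difference of Mbd2 was 0.41 (SE 0.19, unadjusted p 0.0565 and adjusted p 0.987 by edgeR). Baz1a gave 221, 232 and 195 CPM in wild type against 179 and 337 CPM, a log2 difference of 0.26 (SE 0.21), or 0.17 without library wt_Mx_pos_825. Chd3 went the other way in library cKI_Cre_neg_819, with 226, 238 and 218 CPM in wild type against 244 and 161 CPM. Smarca2 likewise gave 215, 168 and 194 CPM against 216 and 129 CPM.

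Smarcc1 and Nap1l1 were low in library cKI_Cre_neg_780 instead, at 192 and 261 CPM, and in library cKI_Cre_neg_819 they stood at 287 and 394 CPM, above and inside the wild-type range. Their log2 differences were -0.18 (SE 0.15) and -0.18 (SE 0.17), both 0.054 without library cKI_Cre_neg_780, and -0.51 and -0.52 without library cKI_Cre_neg_819. Ssrp1 gave 462 and 597 CPM, a log2 difference of -0.19 (SE 0.19). That value was -0.045 without library cKI_Cre_neg_780, -0.067 without library wt_Mx_pos_823, -0.34 without library wt_Mx_pos_820 and -0.40 without library cKI_Cre_neg_819. Library cKI_Cre_neg_819 was the one with 4333 CPM of summed erythroid markers, whose median log2 difference from wild type was 1.15 in this comparison. Of the 15 markers 11 were positive and 4 negative. Car1 and Car2 gave 1442 and 1363 CPM of the sum in that library. Alas2 stood there at 2.75 CPM against 3.37 to 5.00 CPM in wild type, and Hbb-bt at 2.91 CPM against 1.87 to 4.96 CPM. With library cKI_Cre_neg_780 left out, so that library cKI_Cre_neg_819 alone stood for the group and its spread was taken from the other groups, 4 of 52 members were called (7.69%; 3.37% of all genes): Mbd2 (log2 difference 0.72), Baz1a (0.61), Chd3 (-0.53) and Smarca2. Without library cKI_Cre_neg_819 instead, the differences of Mbd2, Baz1a and Chd3 were -0.06, -0.29 and 0.09. Whether the high sum of erythroid markers in library cKI_Cre_neg_819 bears on these values was not tested.

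**Figure D5:**
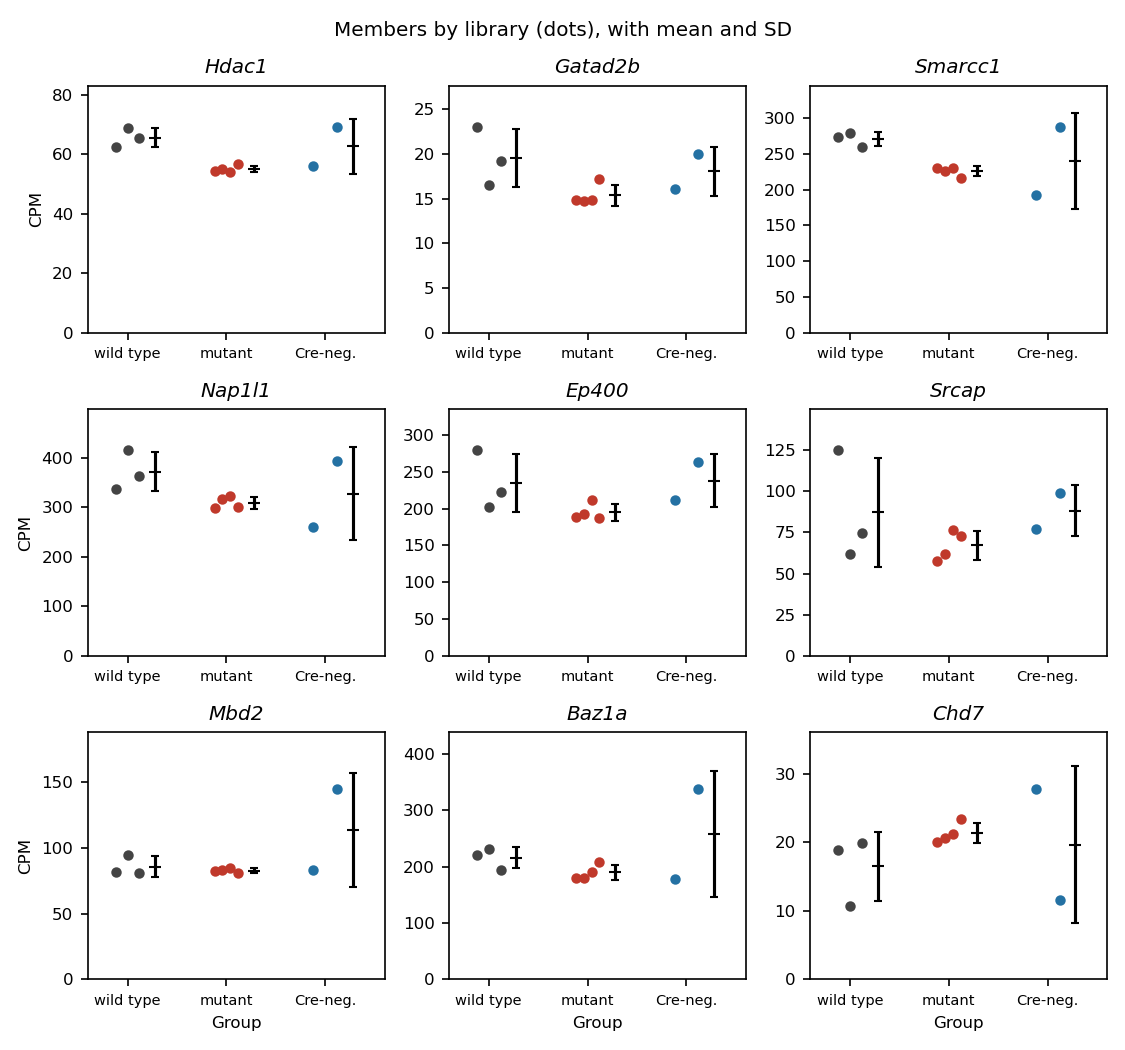
CPM of selected members in each library, by group, with the mean and SD of each group beside the points; the vertical axis of every panel starts at 0. Mutant points lie close together in most panels, and the 2 Cre-negative points lie far apart for Mbd2, Baz1a and Chd7.

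The third comparison, mutant against Cre-negative, shares its libraries with the other two. Again 0 of 52 members were called by edgeR (0% of all genes), DESeq2 called 21 genes and limma-voom 0, and none was a member. At an unadjusted p under 0.05, Mbd2 alone was lower (1.92%; 3.71% of all genes) and no member was higher (1.55%, and 5.26% of all genes in both directions). Mbd2 gave 82.6, 83.3, 84.6 and 80.5 CPM in mutant against the 83.0 and 145 CPM above. Mutant values surrounded library cKI_Cre_neg_780, and the log2 difference of -0.46 (SE 0.18, unadjusted p 0.0275 and adjusted p 0.897 by edgeR) reflects the 145 CPM of library cKI_Cre_neg_819. Baz1a, at 180, 180, 190 and 208 CPM in mutant, differed by -0.44 (SE 0.20, unadjusted p 0.0510 and adjusted p 0.912 by edgeR), with mutant values above library cKI_Cre_neg_780 and below library cKI_Cre_neg_819. Without library cKI_Cre_neg_819 these differences were 0.026 and 0.12, and without library cKI_Cre_neg_780, when 5 of 52 members were called (9.62%; 9.51% of all genes), they were -0.76 and -0.78.

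The median member difference was -0.08, with 36 of 52 negative, against -0.03 and 55.8% negative over all genes. Without library cKI_Cre_neg_819 the median was 0.035 with 19 of 52 negative, and without library cKI_Cre_neg_780 it was -0.18 with 38 negative. Leaving out 1 wild-type or mutant library gave -0.059 to -0.044. The scaling mattered too: under upper-quartile scaling the median was -0.025, with 30 of 52 members negative against 46.8% of all genes. The erythroid markers had a median of -1.31 in this comparison (14 of 15 negative), and their part in the member values was not tested. Mutant values lay wholly below both Cre-negative values for 5 members (9.62%; 7.27% of all genes) and wholly above for 0 (5.09%). The 5 were Bptf, the large NURF subunit, Chd9, Chd4, Srcap and Ep400. Ep400 gave 212 and 263 CPM in Cre-negative libraries, and library cKI_Mx_pos_829 lay just below the lower. Its log2 difference was -0.28 (SE 0.14), or -0.092 without library cKI_Cre_neg_819. Pbrm1 gave 306 and 404 CPM and differed by -0.24 (SE 0.13), which was -0.00037 without library cKI_Cre_neg_819 and -0.38 without library cKI_Cre_neg_780. Ino80, the founding ATPase of its family, gave 122, 123 and 116 CPM in wild type, 104, 111, 109 and 108 CPM in mutant and 110 and 136 CPM in Cre-negative libraries, a log2 difference of -0.19 between the last groups. Hdac1, with 56.2 and 69.2 CPM in Cre-negative libraries, also differed by -0.19. Without library cKI_Cre_neg_819 the differences of Ino80 and Hdac1 were 0.0099 and 0.0013, and without library cKI_Cre_neg_780 they were -0.29 and -0.28. Chd4 was lower in mutant than in every library of both other groups, by -0.08 and -0.07 on the log2 scale (unadjusted p 0.426 and 0.511 by edgeR). The groups almost met, at 855 CPM in library cKI_Mx_pos_829 and 856 CPM in library cKI_Cre_neg_780.

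Other subunits and chaperones of the same machines gave no calls either. Of 72 further genes, 71 were tested, with 0 called in any comparison by edgeR and medians of -0.05, -0.01 and -0.04 in the order above. At an unadjusted p under 0.05 by edgeR, 0 of the 71 stood out in the first comparison (3.17% of all genes). In the second, 2 of 71 were higher (3.64% of all genes). In the third, 1 was higher (1.55% of all genes) and 2 were lower (3.71%). In mutant against wild type the 4 with the lowest p were Baz2b (-0.21), Smarcd3 (0.35), Smarcad1 (-0.19) and Bcl7b (0.26). In the second comparison they were Cecr2 (1.77), Dpf3 (1.51), Bcl7b (0.26) and Baz2b (-0.18). Cecr2 is a partner of ISWI ATPases and stood at 6.17 and 10.0 CPM in Cre-negative against 2.01 to 2.96 CPM in wild-type libraries. In mutant libraries Cecr2 stood at 3.03, 1.63, 6.59 and 5.93 CPM, so the higher values were not confined to the Cre-negative group. Dpf3, a BAF subunit, was at 1.41 and 6.10 CPM against 0.984 to 1.92 CPM, so library cKI_Cre_neg_819 alone stood high. In the third they were Dpf3 (-1.44), Smarcd3 (0.49), Spty2d1 (-0.25) and Phf10 (-0.47). The 6 variant histones listed as cargo had medians of -0.01, -0.06 and 0.04, with 0 called.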

How the data were processed

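Per the labels' protocols, sorted LSK cells gave stranded total RNA libraries depleted of ribosomal RNA. The submitters' processing notes name STAR, HTSeq 0.5.3p3, DESeq2 and the build mm10; overlapping genes are uncertain, since the strand setting of the counting is not given in the sources used here (52.5% of the exon length of Chaf1a overlaps Ubxn6 on the other strand, and 44.7% of Hira overlaps Gm28539 on its own). The authors deposited raw counts per Ensembl gene; the second deposited table, a scaled signal, is those counts over 1 factor for each library and was not tested. Rows naming no gene (40.5% to 47.3% of counts) were left out. Symbols and exon lengths came from GENCODE vM21 (37607 of 39179 rows matched), promoter windows from RefSeq.

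The counts were filtered with filterByExpr, scaled by TMM and fitted with the quasi-likelihood test of edgeR 4.0.16 (R 4.3.3) over all 9 libraries with 1 mean per group, two-sided, with Benjamini-Hochberg adjustment at 0.05 over 18576 genes. Standard errors are the log2 difference divided by the root of its F statistic. DESeq2 1.42.0 and limma 3.58.1 were alternatives. The code was tested on simulated data. Libraries of 1 group differed beyond sampling noise (chi-square per degree of freedom at least 14.6). The members and lists were chosen with earlier results of these data known. Members given in full are the 6 with the lowest p per comparison, the highest and lowest by level, and the named paralogs; Supt16, Chd7 and Smarca5 were added for their role or after their values were seen.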

Additional observations from a re-analysis of the deposited data

Results flagged for a closer look

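Among the 4 mutant libraries, 3 of the 52 members had 1 library far from the other 3 by Dixon's test, which flags about 1 in 20 groups by chance. Smarca4 stood at 365 CPM in library cKI_Mx_pos_824 and at 293 to 303 CPM in the others. Mbd3 stood at 48.0 CPM in the same library and at 34.1 to 35.9 CPM in the others. Gatad2b stood at 17.2 CPM in library cKI_Mx_pos_830 and at 14.7 to 14.9 CPM in the others.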

How the results depend on the processing

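In mutant minus wild type 0 members were called under all 19 alternatives to the edgeR fit (other scalings, filters, tools, threshold, sex covariate, the groups compared alone, each library left out, and libraries cKI_Mx_pos_829 and cKI_Mx_pos_830 left out, the last chosen after seeing the data), and the member median stayed between -0.12 and -0.05. Of 324 alternative values for 18 pairs of member and comparison, 310 kept their direction and side of the threshold, 5 passed it and 9 changed sign, the last 14 by leaving out a Cre-negative library; the cause was not tested. Left-out libraries gave 0 to 4 called members and medians of -0.14 to 0.054 in Cre-negative minus wild type, and 0 to 5 called members (Asf1a, Baz1a, Chd3, Mbd2 and Smarca2) and medians of -0.18 to 0.035 in mutant minus Cre-negative, the upper counts without library cKI_Cre_neg_780, when 650 and 1835 genes in all were called. Without library cKI_Cre_neg_780, Smarcc1 was 0.054 and Nap1l1 0.054 against wild type, and without library cKI_Cre_neg_819 they were -0.51 and -0.52. Without library cKI_Cre_neg_780 the adjusted p by edgeR against wild type was 0.00998 for Mbd2 (0.72), 0.0352 for Baz1a (0.61) and 0.0322 for Chd3 (-0.53). In mutant minus Cre-negative that p was 0.00431 for Mbd2 (-0.76) and 0.00667 for Baz1a (-0.78), with Ino80 at -0.29 and Hdac1 at -0.28. Without library cKI_Cre_neg_819, Mbd2 was -0.060, Baz1a -0.29 and Chd3 0.090 against wild type, and mutant minus Cre-negative was 0.026 for Mbd2, 0.12 for Baz1a, 0.0099 for Ino80, 0.0013 for Hdac1 and -0.00037 for Pbrm1. No paired analysis was possible because the groups share no library number.

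With 2 to 4 libraries per group, the 95% interval of Supt16 in mutant minus wild type ran from -0.61 to 0.19, and every value in that range is compatible with these libraries. Levels per kb moved with the longest transcript as the length, for Smarca2 from 13.1 to 31.7 CPM per kb and for Ssrp1 from 151 to 206 CPM per kb.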
